A study of Drosophila melanogaster with 2 samples.

Results

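Binding of the corepressor Gug was described at 9 genes of epidermal growth factor receptor (EGFR) signalling, among 13945 protein-coding genes of the annotation. They are the receptor gene Egfr, the ligand genes spi, vn and Krn, the transcription factor genes pnt, aop and cic, and the feedback antagonist genes aos and sty. The genes were chosen by name and not by their signal, but with earlier results of these data known. Egfr, spi, vn, Krn and pnt are called activators here, and aos, sty, aop and cic antagonists. The data were chromatin immunoprecipitation sequencing peaks from whole prepupae (1 day) of the transgenic strain Gug-GFP, which carries an insertion targeting Gug and expresses the Gug-eGFP fusion, pulled down with an antibody to GFP. There was 1 group with 2 biological replicates. No second condition was available, so no test was made, and the values below describe these lists. Whole animals mix all tissues, so a peak cannot be assigned to a cell type, and a peak in few cells cannot be told apart from weak binding in many. Sex was not collected, and the sources used here give no read depth. The thresholded lists held 5753 peaks for the replicates combined, 3827 for replicate 1 and 4000 for replicate 2.

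In this pathway, the ligands Spi and Krn are made as membrane-bound precursors, while Vn is a secreted neuregulin-like ligand. The receptor activates Ras and the MAP kinase cascade. The kinase then turns on the ETS activator Pnt and relieves repression by the ETS repressor Aop (Yan) and the HMG-box repressor Cic (Capicua). Aos binds and sequesters Spi outside the cell, and Sty (Sprouty) blocks signalling inside it, and both are transcriptional targets of the pathway. Gug, the Drosophila Atrophin, is recruited to DNA by other proteins, and fly genetics has placed it among the negative regulators of EGFR signalling.

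The strongest peak of 6 of the genes is shown as 200 bp of sequence with the summit, the peak's highest point, at the 101st base (release 6 of the fly genome, RefSeq sequence). Capitals mark the core CAGTG, or its reverse complement CACTG, which was chosen after the data had been seen and is described with the word positions. pnt, aop, aos and vn are shown because they hold it, as does the strongest peak of cic, and sty and spi because they have the highest signal of all 9 genes and the strongest promoter peak of the 9, without it.
pnt (chr3R:23326390-23326589, plus strand): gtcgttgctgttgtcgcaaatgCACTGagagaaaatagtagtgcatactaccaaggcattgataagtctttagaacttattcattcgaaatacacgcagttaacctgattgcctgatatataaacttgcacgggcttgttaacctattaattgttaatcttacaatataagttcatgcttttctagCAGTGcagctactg
aop (chr2L:2163568-2163767, plus strand): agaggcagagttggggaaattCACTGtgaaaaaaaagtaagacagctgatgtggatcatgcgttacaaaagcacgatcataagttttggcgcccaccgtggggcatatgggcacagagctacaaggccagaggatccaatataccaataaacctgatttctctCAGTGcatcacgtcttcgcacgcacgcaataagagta
aos (chr3L:16480477-16480676, plus strand): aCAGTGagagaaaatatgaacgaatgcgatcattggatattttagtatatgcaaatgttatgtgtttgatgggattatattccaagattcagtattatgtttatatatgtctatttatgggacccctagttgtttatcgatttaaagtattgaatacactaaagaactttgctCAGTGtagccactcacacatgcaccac
vn (chr3L:5834337-5834536, plus strand): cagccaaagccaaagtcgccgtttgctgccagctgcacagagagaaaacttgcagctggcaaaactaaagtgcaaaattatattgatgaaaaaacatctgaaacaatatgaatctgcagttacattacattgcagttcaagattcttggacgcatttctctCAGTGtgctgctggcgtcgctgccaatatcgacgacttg
sty (chr3L:3418891-3419090, plus strand): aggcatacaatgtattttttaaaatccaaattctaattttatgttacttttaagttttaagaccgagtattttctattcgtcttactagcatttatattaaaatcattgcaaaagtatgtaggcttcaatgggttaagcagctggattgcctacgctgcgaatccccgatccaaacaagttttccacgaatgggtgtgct
spi (chr2L:19575718-19575917, plus strand): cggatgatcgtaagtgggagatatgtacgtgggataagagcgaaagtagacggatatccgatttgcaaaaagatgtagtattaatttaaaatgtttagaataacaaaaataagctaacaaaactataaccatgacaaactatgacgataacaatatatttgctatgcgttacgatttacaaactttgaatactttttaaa

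All 9 genes held a summit between 2000 bp upstream and the gene end in the list of thresholded peaks from both replicates together, which was the case for 25.7% of protein-coding genes. Long windows hold a summit more often, and the windows of these genes ran from 6.72 kb (Krn) to 57.9 kb (pnt). Among all coding genes, 2326 of 11620 with windows under 10 kb held a summit, as did 48.0% at 10 to 20 kb, 57.6% at 20 to 40 kb and 60.8% at 40 to 60 kb. The 9 genes together held 41 summits in 268 kb, or 1.53 per 10 kb. Coding genes in those 4 length bands had 0.571, 0.683, 0.545 and 0.480 summits per 10 kb.

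**Figure D1:**
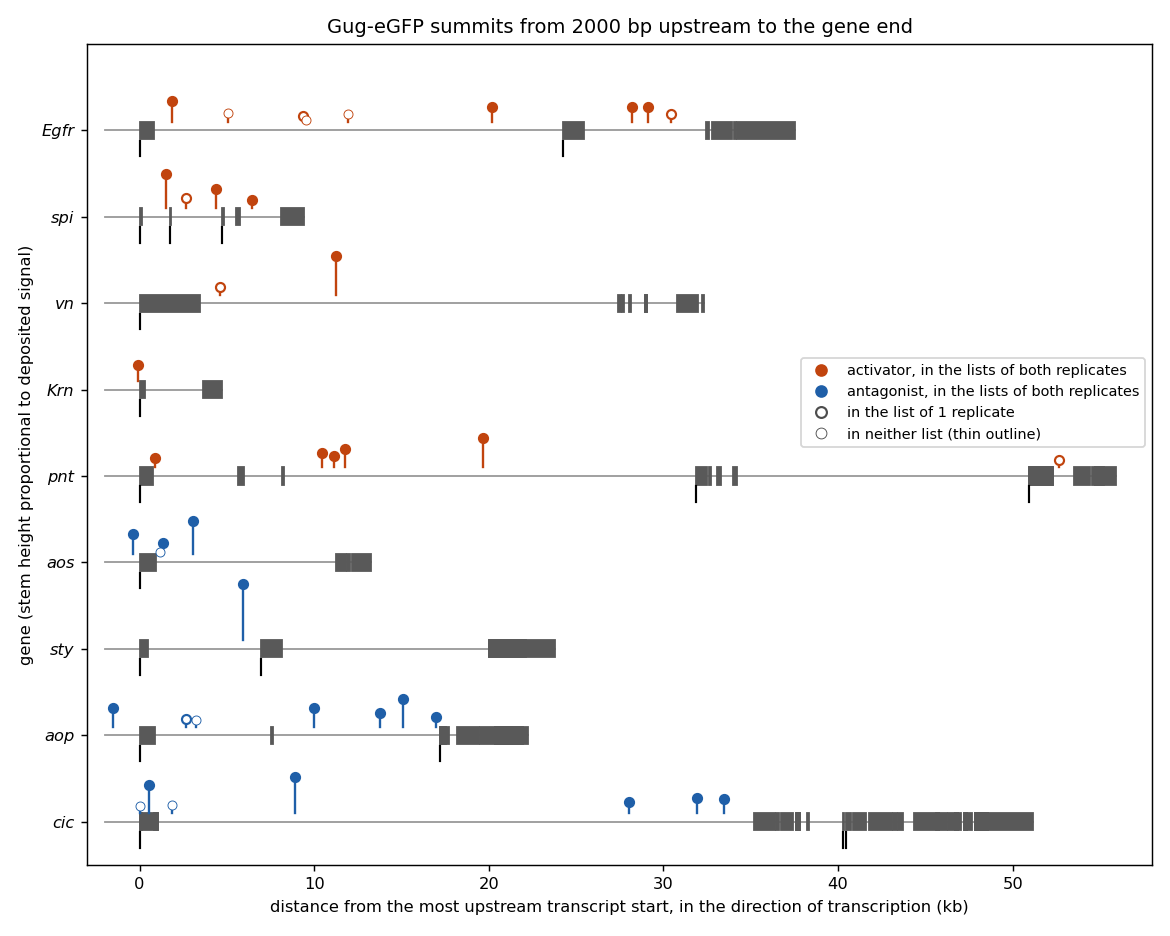
Each row is 1 gene drawn from 2 kb upstream to its end in the direction of transcription (x axis, kb from the most upstream transcript start), with exons as boxes and transcript starts as ticks below the line. Stems are the 41 summits with height proportional to the deposited signal (highest 611, at sty), activators above antagonists. Filled points, 28 in all, were in the lists of both replicates.

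Among the ligand genes, spi held 4 summits (FBgn0005672, arm 2L, 19567900 to 19577315, minus strand). The strongest, 231 bp upstream of an internal transcript start at 19575818, had a deposited signal of 368 for the replicates combined, with 171 in replicate 1 and 213 in replicate 2. Another promoter summit at 19572955, 345 bp upstream of another start, had 205 (95.6 and 110 in replicates 1 and 2). The remaining summits, at 19574665 and 19570896, were intronic with signals of 108 and 93.8. spi was thus bound between 1497 and 6419 bp downstream of its first start, beside 2 of its 3 transcript starts. All 4 summits were in the list of replicate 1 and 3 of them in that of replicate 2.

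vn (FBgn0003984, arm 3L, 5813338 to 5845664, minus strand) showed a different arrangement. It had 2 summits, both in its first intron and neither near its single transcript start. The stronger lay 11227 bp downstream of the start at 5834437, with a signal of 420, 192 in replicate 1 and 229 in replicate 2, the highest of any activator gene. The weaker, at 5841063, had 81.9 (34.1 and 45.8) and was in the list of replicate 2 only.

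Krn (FBgn0052179, arm 3L, 17649562 to 17654280, minus strand) had 1 summit, 88 bp upstream of its transcript start at 17654368. Its signal was 170, 70.0 in replicate 1 and 99.4 in replicate 2, and it was in both lists. Ndfip has an annotated transcript start at the same base and on the same strand, so the peak cannot be assigned to one of them. The signal was the lowest maximum of the 9 genes.

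In the combined list the receptor gene Egfr held the most summits, 9 (FBgn0003731, arm 2R, 21522420 to 21559977, plus strand). All 9 lay in the first intron of its longest transcript, which contains a second, downstream start of the gene. The strongest, 1849 bp downstream of the first start at 21524269, had a signal of 228, 88.2 in replicate 1 and 145 in replicate 2. Summits at 21551534 and 21550638 had 166 (68.7 and 94.7) and 162 (58.1 and 96.4). These 3 and the summit at 21542610 (161, with 53.4 and 116) were in both lists, whereas the other 5, with signals from 18.9 to 90.3, were in 1 list or neither. Of 653 coding genes with windows of 20 to 40 kb, 6, Egfr included, held 9 or more summits (0.919%) in the combined list. This count depended on the list. Egfr had 5 summits in the list of each replicate alone, where pnt, aop and cic had 5 each in replicate 1 and 6 each in replicate 2. With a stricter irreproducible discovery rate (IDR, a measure of how reproducibly a peak ranks) of 0.001 or less it had 4, against 5 each at pnt and aop. Not all 9 need belong to Egfr. The window overlaps 5 other coding genes, and 4 of the summits lie nearer to the start of CG30283 or CG30286. The pair at 21531762 and 21531963 lies at the promoter of the noncoding gene lncRNA:CR44725, and the weaker of these (signal 18.9) is within 250 bp of the other.

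pnt, which encodes the ETS activator, held 6 summits in 57.9 kb (FBgn0003118, arm 3R, 23290231 to 23346167, minus strand). The strongest was intronic, 12175 bp from the nearest pnt start at 23326490, and had a signal of 320, 148 in replicate 1 and 176 in replicate 2. A further 3 summits clustered in the same intron, at 23334411, 23335010 and 23335706, with signals of 197, 120 and 153, and the first of them lay 608 bp from the start of lncRNA:CR46090. All of these and a summit 858 bp into the gene (102, with 58.5 and 49.1) were in both lists. The summit in the sixth intron was the weakest (78.3, with 26.8 in replicate 1 and 52.5 in replicate 2) and was in the list of replicate 2 only. None of the 6 was at a promoter.

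Of the secreted and cytoplasmic antagonists, aos held 4 summits (FBgn0004569, arm 3L, 16470386 to 16483650, minus strand). The strongest was in the first intron, 3073 bp downstream of the start at 16480577, with a signal of 358, 138 in replicate 1 and 215 in replicate 2. Its promoter summit, 354 bp upstream of the start at 16484004, had 209 (96.7 and 108). The summit at 16482305 had 121 (80.9 and 46.6), and a weak one within 250 bp of it (14.8) had no peak of its own in either replicate. sty had 1 summit and the highest signal of the 41 (FBgn0014388, arm 3L, 3401153 to 3424935, minus strand). It lay at 3418991, 1030 bp upstream of the second sty start and within the first intron of the longer transcript. Its signal of 611, with 251 in replicate 1 and 372 in replicate 2, ranked 140 among 5750 summits. In number of summits sty was ordinary, since 57.6% of coding genes with windows of 20 to 40 kb held at least 1.

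The genes of both repressors were bound at several places. aop (FBgn0000097, arm 2L, 2156484 to 2178754, minus strand) held 7 summits, and 16 of 653 coding genes with windows of 20 to 40 kb (2.45%), aop included, had 7 or more. Its strongest, at 2163668, had a signal of 296, 122 in replicate 1 and 180 in replicate 2. An intronic summit at 2168744 had 207 (94.2 and 106), and an intergenic one 1507 bp upstream at 2180261 had 201 (100 and 101). Of the 7, 5 were in both lists. cic (FBgn0262582, arm 3R, 20252770 to 20303942, plus strand) also held 7, and 16 of 245 coding genes with windows of 40 to 60 kb (6.53%), cic included, had that many. With an IDR of 0.001 or less cic kept 4. The strongest was in the first intron, 8879 bp downstream of the start at 20261649, with 396 (168 in replicate 1 and 219 in replicate 2). A 5′ UTR summit at 20253324 had 299 (110 and 187), and an intronic one at 20284697 had 160 (84.8 and 80.7). The summit at the first cic promoter itself, 30 bp from the start, was weak at 77.6 and in neither list.

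**Figure D2:**
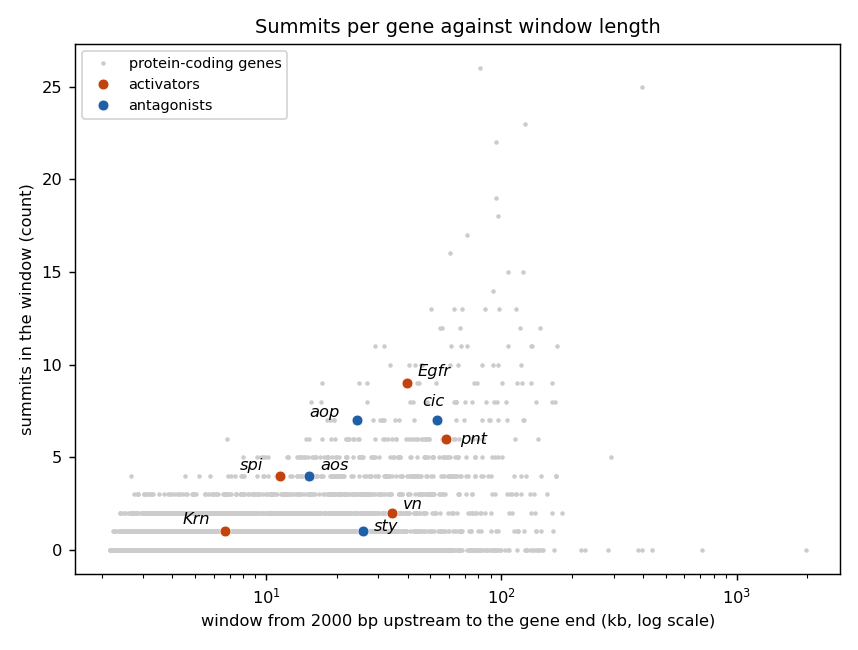
Each point is a protein-coding gene, with its window from 2000 bp upstream to the gene end on the x axis (kb, log scale) and the number of summits in it on the y axis. Egfr with 9 summits and aop and cic with 7 lie toward the top of genes of their length, while vn with 2 and sty with 1 lie in the dense lower part.

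Pooled over genes, activators and antagonists had similar numbers of summits for their length in the combined list. The 5 activator genes held 22 summits in 150 kb, or 1.47 per 10 kb, and the 4 antagonist genes held 19 in 118 kb, or 1.60 per 10 kb. In the same windows, replicate 1 alone gave 17 at activators and 14 at antagonists, and replicate 2 alone 17 and 18. The balance between the groups thus depended on the list. Single genes varied widely, from 0.583 (vn) to 3.50 (spi) per 10 kb among activators and 0.388 (sty) to 2.88 (aop) among antagonists. The nearest coding start was the gene's own for 18 of the 22 activator summits and all 19 antagonist summits. Promoters held 5 of 22 activator summits and 3 of 19 antagonist summits. Of those 5, the 2 at Egfr lay at the start of lncRNA:CR44725 and not of Egfr. The 1 at Krn lay at a start shared with Ndfip. The signal had a median of 137 (18.9 to 420) at activators and 153 (14.8 to 611) at antagonists. The strongest summit of each gene ranged from 170 to 420 at activators (median 320) and from 296 to 611 at antagonists (median 377). The ranges overlapped, since spi, vn and pnt lay within that of the antagonists. Egfr and Krn lay below every antagonist. Of the activator summits, 14 of 22 were in both replicates' lists, 5 in 1 and 3 in neither, and of the antagonist summits 14 of 19, 1 and 4. Genes are not replicates and the difference was not tested.

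The summits of the 9 genes were mostly intronic. Introns held 31 of the 41 (75.6%), against 45.7% of all 5750 summits, and promoters, taken as 500 bp to each side of annotated transcript starts, held 8 of the 41, against 35.8%. The remaining 2 were the intergenic one at aop and the 5′ UTR one at cic, and no summit lay in a coding exon. Longer windows held more intronic summits in other genes too. In windows of 10 to 60 kb, 31 of 40 summits of the EGFR genes were intronic (77.5%), against 64.3% of the 2493 summits of other coding genes, and 7 were at promoters (17.5% against 30.5%). By position in the gene, 31 of the 41 lay in the first intron of the longest transcript, and 15 lay more than 5000 bp from any start of their gene. No share over all summits is given beside these counts, so they are not shown to be particular to the 9 genes. First introns can take up much of a gene, as at vn, where it ran from 3.456 to 27.378 kb of 32.3 kb. Counted near starts only, 6 of the 9 genes had a summit within 1000 bp of one of their own transcript starts, against 18.9% of coding genes. Egfr, vn and sty had none. The 18.9% covers genes of all lengths and numbers of starts and was not matched to the 9 genes. The start of Krn, counted among the 6, is shared with Ndfip. The nearest coding start was the gene's own for 37 of the 41 summits.

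Most of the summits were found in each replicate on its own. Both lists held 28 of the 41 summits (68.3%), against 50.2% of all summits, 6 were in 1 list and 7 in neither. A signal in both ranked lists was found for 39, and it was higher in replicate 2 for 30 of them, with a median ratio of replicate 2 to replicate 1 of 1.19 (0.341 to 3.18), against 1.24 over all summits. The largest departures were the cic summit at 20280773, with 68.8 in replicate 1 and 23.4 in replicate 2, and the aop summit at 2176100, with 19.9 and 63.3. Taken alone, the list of replicate 1 placed 31 summits in the 9 windows and that of replicate 2 placed 35. The median signal was 153, against 112 for all summits, and 14 of the 41 lay above the upper quartile of all summits, 185.

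**Figure D3:**
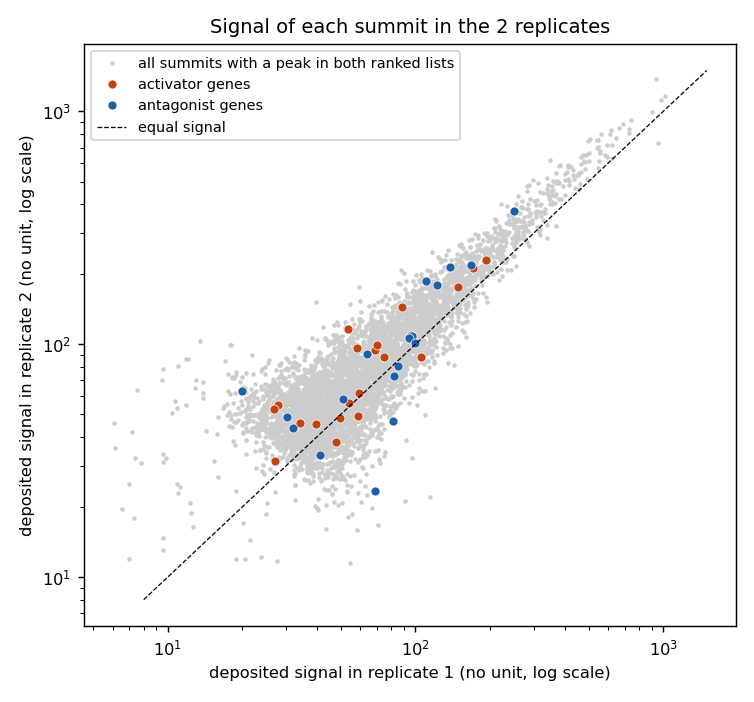
Each point is a summit with its deposited signal in replicate 1 (x axis) and replicate 2 (y axis), both on log scales without a unit. The coloured points are the 39 summits of the EGFR genes found in both ranked lists, 30 of which lie above the dashed line of equal signal, and the grey points are all summits.

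Weaker ranked peaks that failed the threshold numbered 197 in the 9 windows, for 238 ranked peaks in all. At least 1 ranked peak was present at each of the 9 genes and at 79.3% of coding genes. They ran from 6 at Krn to 53 at pnt when the thresholded peaks are counted in, or 6.21 per 10 kb at sty to 14.4 at aop. Coding genes in the 4 length bands had 5.68, 6.0, 5.72 and 5.51 per 10 kb, and each of the 9 genes was above the value of its band. This difference was not tested. The strongest peak that failed lay at cic (signal 78.4, at 20283229), followed by pnt (76.0), vn (68.4) and Egfr (66.2). Those of spi (42.8) and Krn (47.6) were the lowest.

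Sequence words gave a common feature of these summits and of the whole list. Words of factors tied to the pathway or to Gug were counted in 200 bp windows on both strands. The Capicua word TGAATGAA was in none of the 41 windows (0 of 41 allows up to 8.60% by the 95% exact interval) and in 1.91% of all windows, and the other Capicua word, TCAATGAA, in none and in 1.08%. The interval treats the 41 windows as independent draws, whereas they are all the summits of 9 genes chosen by name. The Ets core CCGGAA was in 1 (2.44%), at aop, against 2.92%. The Tailless half-site AAGTCA was in 5 (12.2%), against 9.90%, the nuclear receptor half-site AGGTCA in none, against 3.57%, the Brinker word GGCGCC in 1, at aop, against 2.12%, and the GAGA factor word GAGAG in 13 (31.7%), against 24.2%. The words are short or fixed spellings, and these counts say only which letters lie in these windows.

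Words chosen after the data had been seen, because they ranked high among all short words by frequency in summit windows over that 1000 bp away, gave a more regular picture. The windows of the 9 genes were part of that search, and AT-rich words also ranked high. The word CAGTGTA was in 3 of the 41 windows (7.32%), against 8.19% of all windows and 1.74% of flanks. The word CAGTGCA was in 7 (17.1%), against 690 of 5750 windows and 3.63% of flanks, and the word CTCAGTG was in 7 (17.1%), against 7.10% of all windows and 1.73% of flanks. They share the core CAGTG, so a site can count in more than 1 word. The core itself was in 20 of the 41 windows (48.8%), against 49.8% of all windows and 30.9% of flanks. Within 150 bp of the summit, 17 of the 41 summits held at least 1 of the 3 words (41.5%), with 19 sites, against 1682 of the other 5709 summits (29.5%). aop had 6 of these sites, Egfr 4, pnt 3, aos and cic 2 each, and spi and vn 1 each, while Krn and sty had none. Of the 19, 16 (84.2%) ran outward, on the plus strand to the right of the summit or on the minus strand to its left. In the other 5709 summits, 1645 of 2095 sites did so (78.5%). The core lay 40 to 100 bp from the summit for 13 of the 19 sites at the EGFR genes (68.4%) and for 1187 of the 2095 sites at the other summits (56.7%). The strongest pnt peak held a site on each side, 76 bp to the left and 88 bp to the right, as did the aop summit at 2164976, 69 and 44 bp away. Sites on both sides were found at 2 of the 41 summits and at 241 of the other 5709. The sequence was AT-rich near the summit, with a GC content of 34.9% in the 20 bp just right of the EGFR gene summits and 45.2% at 280 to 300 bp, against 33.7% and 44.5% for all summits. The protein that reads these words was not tested.

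**Figure D4:**
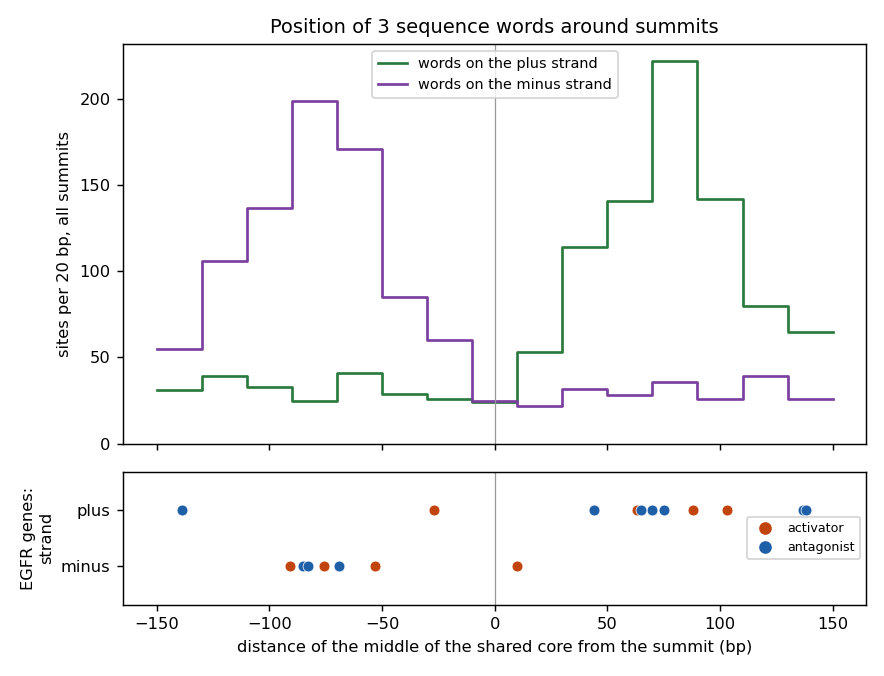
The upper panel gives, for all 5750 summits, the number of sites of the 3 words in 20 bp bins (y axis) by distance from the summit in bp (x axis), with 1 line for each strand, and the lower panel the 19 sites at EGFR genes. Minus-strand sites peak at 70 to 90 bp left of the summit (199 sites) and plus-strand sites at 70 to 90 bp right of it (222 sites). Of the 19 EGFR gene sites, 16 have the same outward orientation, at any distance within 150 bp.

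Of the other genes of the pathway, 33 on a list arranged by role, 20 held a summit (60.6%, against 25.7% of coding genes), with 60 summits in all, in windows of 3.13 to 86.4 kb. The 25.7% covers windows of all lengths and was not matched to those of the 33 genes. Among all coding genes the share rose from 2326 of 11620 under 10 kb to 69.4% at 60 kb or more. When only summits with the gene's own start as the nearest coding start were counted, 14 of the 33 genes held a summit. No share of all coding genes counted by this rule is given, so the 25.7% is not its counterpart. Ligand genes and genes for their processing had summits at 3 of 5, namely S, ru and stet. Adaptors, Ras and the kinase cascade had 8 of 12, other brakes 5 of 8, and nuclear effectors and targets 4 of 8. Raf, the MAP kinase kinase kinase gene, held 13, the strongest at X 2300697 in an intron with a signal of 900, 418 in replicate 1 and 485 in replicate 2. edl, which encodes an antagonist of Aop and Pnt proteins, had 1 intronic summit with 798 (341 and 448). Shc, an adaptor gene, had 953 (438 and 515). Its summit was of the promoter class, 133 bp from the Shc start, but the nearest coding start was that of Atat. The peak cannot be assigned to one of them. The summits of the scaffold gene cnk (449) and the adaptor gene drk (420) were also nearest other genes, l(2)k01209 and mars. They lay 1107 and 2537 bp from the starts of cnk and drk. The strongest summits of dos, ksr, Spred and pip also lay nearest the starts of other coding genes, and that of dos was in neither list. The brakes ed, a cell adhesion gene, RasGAP1, a Ras GTPase-activating protein gene, and Mkp3, a MAP kinase phosphatase gene, had strongest summits of 469, 463 and 334. Ras85D and rl, the Ras and MAP kinase genes, held none.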

How the data were processed

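The deposited peak lists use dm6, per the labels. Each replicate, and the pair combined, has a ranked list and a list thresholded by the irreproducible discovery rate (IDR, how reproducibly a peak ranks). The sources used here name no caller, aligner or IDR setting. The score deposited by the authors is a scaled IDR, the deposited signal is the caller's own value per peak with no unit, and the deposited −log10 q-value was not used. The 4 columns with signals of matched peaks in the lists of the whole series were not used. The thresholded list of both replicates together (5753 peaks, 5750 on the 6 main arms) was the main one. It holds the ranked peaks with an IDR of 0.01 or less apart from 104.

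Annotation was Ensembl release 115, and sequence was RefSeq release 6, in which 99.8% of annotated whole start codons read ATG. Coordinates are 1-based. Scripts used Python 3.11.15, pandas 2.3.3, numpy 2.4.6 and SciPy 1.17.1. Where classes overlapped, a promoter took precedence over exons, and exons over introns. A summit counted as present in a replicate when that replicate's list had one within 100 bp, and its signal there is that of its ranked list. Counting steps were tested on simulated data. The 9 genes, the pathway list (34 names, 1 an older symbol of another) and the words were chosen with earlier results of these data known. The 3 summits of highest signal at each gene are named, and the 8 other pathway genes with the highest signal. Other summits named were chosen after their values were seen, as was numbering introns by the longest transcript. Motifs were the 7 words of the plan and 4 chosen later. The control experiment named in the labels was not analysed here, and 1 further gene of the pathway and the alternative built on it are not reported here.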

Additional observations from a re-analysis of the deposited data

How the results depend on the processing

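All 9 genes kept a summit in the conservative set, in each replicate alone and with an IDR of 0.001 or less, and 8 did with no upstream sequence, where Krn had none, and 8 among the 1000 strongest peaks. No share of all coding genes is given for these settings, for the 9 genes or for the other pathway genes counted below. These counts thus do not show how either set compares with other coding genes. Summits at the 9 genes ranged from 31 to 35 in single replicates and were 41 in the conservative set. These were not all the same summits. The conservative set kept 37 of the 41 and had 8 at Egfr and 7 at pnt. Among the 1000 strongest peaks they fell to 9 (4 at activators, 5 at antagonists), with 11 other pathway genes, as fewer peaks are counted. Within 1000 bp of a start there were 9 summits (5 at activators, 4 at antagonists), at 3 activator genes in place of 5, and 10 other pathway genes, and with no upstream sequence 13 of those genes. With promoters of 1000 bp on either side, 13 summits were at promoters. Of 73 alternatives to these counts, 62 stayed within 1.5 times. Merging summits within 250 bp, chosen after seeing the data, left 39. In 100 bp windows the core CAGTG was in 8 of 41 windows, against 20 of 41 with 200 bp, and in all windows the share was 20.1% against 49.8%. Over all summits, sites of the 3 words that hold this core lay a median of 79.0 bp from the summit, outside a 100 bp window. The cause of the lower share was not tested. Depth is not given, so weak peaks in 1 list or neither cannot be ranked by precision.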
